A study of Homo sapiens with 20 samples.

Results

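The genes followed here encode 10 lysine acetyltransferases. They are CREBBP and EP300, whose proteins CBP and p300 are the targets of the degrader dCBP-30, and KAT2A, KAT2B, KAT5, KAT6A, KAT6B, KAT7, KAT8 and NCOA3. They were chosen by name from the 19617 genes counted, and each was read on the transcript of GENCODE with the most reads over all libraries. All 10 passed the filter on low counts, both among the 10086 genes tested in T>C reads and among the 12272 genes tested in total reads.

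The cells were MM1.S, a line established from a patient's multiple myeloma and labelled as wild type (WT). They received 10 nM dCBP-30 or the vehicle DMSO for 2, 6 or 24 h, with 3 libraries in each of the 6 groups, so that each time of treatment is set against DMSO cells of the same time. For the last 1 h the cells were given 4-thiouridine (4sU), a uridine analogue that after alkylation is sequenced as C. Reads with such T>C conversions therefore come from RNA made within that hour, while total reads count old and new RNA together. Another 2 libraries without 4sU, whose treatment and time are not given, show the background of the conversion. The sources speak of triplicates without saying that these were separate cultures, so the p-values measure the spread between these libraries, which may be technical.

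Lysine acetyltransferases move an acetyl group from acetyl-CoA to lysines of histones and of other proteins, and acetylated histone tails mark active enhancers and promoters. CBP and p300 are closely related coactivators that acetylate histones at enhancers. KAT2A (GCN5) and KAT2B (PCAF) are interchangeable catalytic subunits of the SAGA and ATAC complexes, KAT5 (TIP60), KAT6A, KAT6B, KAT7 and KAT8 form the MYST family, and NCOA3 is a nuclear receptor coactivator that recruits CBP and p300. Plasma cell tumours such as myeloma rely on enhancers of plasma cell genes. The comparison asks whether RNA of these genes changed while CBP and p300 proteins were being degraded, which bears on compensation by the targets themselves or by other acetyltransferases. Since dCBP-30 acts on the proteins, the RNA of CREBBP and EP300 is no check of the treatment labels.

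The libraries held between 12440700 and 18729086 reads on genes. All 8 plasma cell markers examined were read in every DMSO library, from 99.1 RPM (reads scaled to a library of 1000000 reads on genes) for TNFRSF17, the receptor BCMA, to a highest value of 1782 RPM for SDC1, the surface antigen CD138. The 3 B cell markers and 3 monocyte markers stayed at or below 0.604 RPM in every labelled library, and so did CD3D and CD3G among the T cell markers, while CD3E lay between 2.08 and 15.7 RPM. The plasma cell markers summed to between 518 and 701 RPM with dCBP-30 at 24 h, against 5088 to 5202 RPM under DMSO, and the part of this difference in the results below was not tested. In these bulk libraries, fewer cells of a kind and less RNA per cell cannot be told apart.

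RPM values use library totals multiplied by TMM factors, which set the bulk of genes level between libraries. These factors were 0.873 to 0.934 in the DMSO libraries, and 0.932 to 0.962, 1.11 to 1.14 and 1.29 to 1.32 with dCBP-30 at 2, 6 and 24 h. T>C reads were scaled with the same factors and the same total reads. The median gene then changed by log2 fold changes of -0.00, 0.02 and 0.05 in total reads at 2, 6 and 24 h, and by 0.05, -0.27 and -0.69 in T>C reads. Without the TMM factors the median gene stood at 0.10, 0.35 and 0.58 in total reads, so a change in total reads at 24 h is stated relative to a level that this choice moves by about that much. A gene was called changed where the adjusted p of edgeR's quasi-likelihood test, corrected after Benjamini and Hochberg for all genes tested, was under 0.05.

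In total reads, none of the 10 genes was called in either direction at 2 h, where 1.55% of all genes tested were called higher and 2.67% lower. At 6 h, 2 of the 10 were higher (CREBBP and EP300) and 3 were lower (KAT2B, KAT6B and NCOA3), against 18.8% and 21.5% of all genes. At 24 h, 5 of the 10 were higher (CREBBP, EP300, KAT2B, KAT6A and NCOA3) and 1 was lower (KAT2A), against 28.7% and 29.9% of all genes. With so many genes called, the counts at 6 h lie near the background in both directions. At 24 h more members than the background share were higher and fewer were lower, but with only 10 genes this was not tested. Of the 5 higher at 24 h, 2 were also beyond 2-fold. The median log2 fold change of the 10 in total reads was -0.10, -0.26 and 0.37 at 2, 6 and 24 h.

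Fewer calls were made in T>C reads. At 2 h none of the 10 was higher and NCOA3 was lower, against 2.45% and 8.35% of all genes. No member was called at 6 h, when 3.02% of all genes were called higher and 21.3% lower. EP300 was the 1 member called higher at 24 h, against 2.77% of all genes, and KAT2A, KAT6B and KAT7 were the 3 called lower, against 37.1%. The median of the 10 was -0.25, -0.48 and -0.29 at 2, 6 and 24 h, below the median gene at 2 and 6 h and above it at 24 h. KAT5 and KAT8 were called at no time point in either measure.

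**Figure D1:**
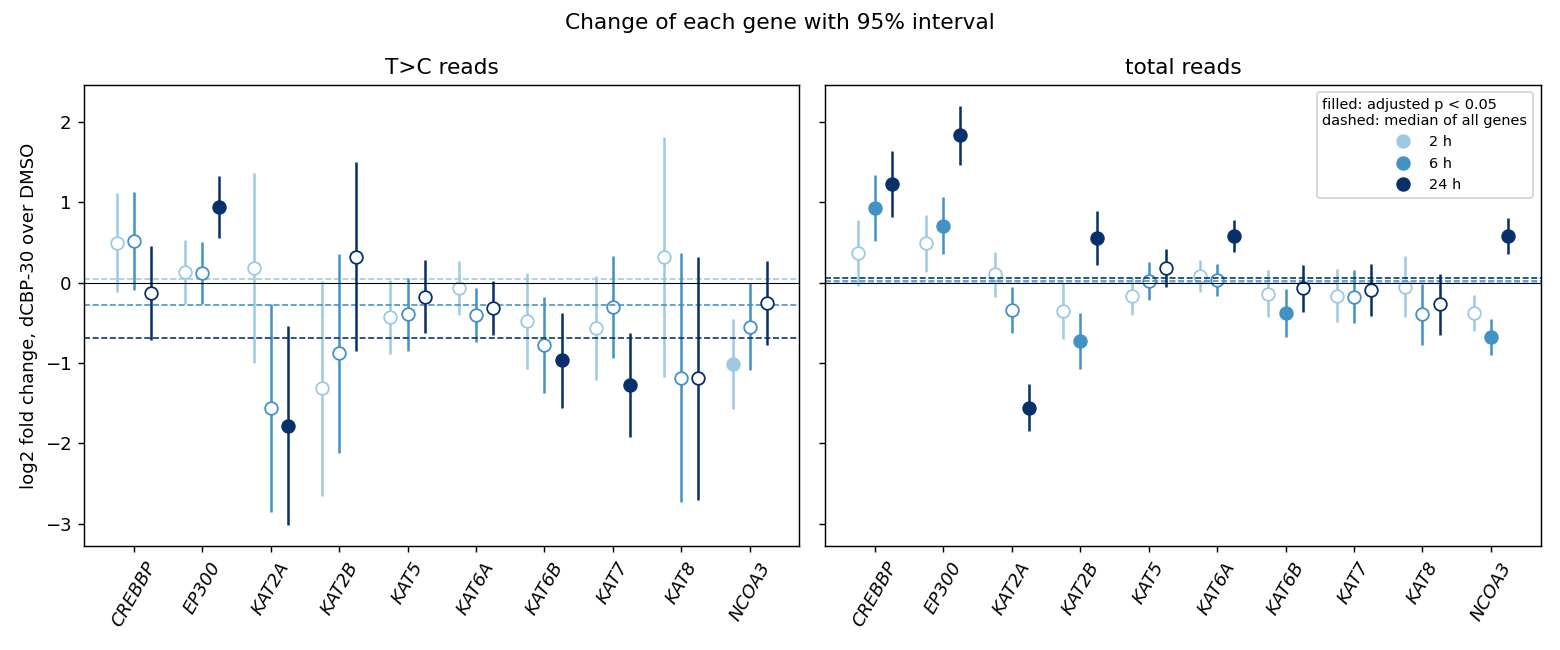
Log2 fold change of each gene, dCBP-30 over DMSO, in T>C reads (left) and total reads (right) at 2, 6 and 24 h (light to dark blue); vertical lines are 95% intervals, filled points have an adjusted p under 0.05, and dashed lines are the median of all genes tested. EP300 at 24 h is the one filled point above 0 on the left (0.94), and on the right EP300 (1.83) and KAT2A (-1.56) lie farthest apart at 24 h.

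EP300 lies on chromosome 22 of hg38, and its reads came from the 3' UTR at 41178957 to 41180077 on the plus strand. It had the highest median of the 10 in total reads under DMSO, though its range overlapped that of KAT5 (120.2 to 170.6 RPM). The lowest, median and highest values of EP300 over the 9 DMSO libraries were 102.4, 174 and 204 RPM. At 24 h the dCBP-30 libraries held 493.5, 594 and 614 RPM and the DMSO libraries 204, 129.7 and 144 RPM. Every dCBP-30 library thus lay above every DMSO library, by a wide margin. The log2 fold change was 1.83 ± 0.19 (SE, n = 3 per group; edgeR adjusted p = 1.82e-08), a 3.56-fold rise, and 7.97% of the 12272 genes tested had a larger change.

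EP300 was higher at 6 h as well, by less than at 24 h. At 6 h the dCBP-30 libraries held 255, 289.6 and 353.5 RPM against 195.5, 182 and 173.5 RPM, again without overlap, a log2 fold change of 0.71 ± 0.18 (SE; edgeR adjusted p = 0.0036). At 2 h the values were 200.3, 194 and 207 RPM with dCBP-30 and 102.4, 130.4 and 196 RPM with DMSO, where the highest DMSO library overlapped the dCBP-30 libraries. That difference of 0.49 ± 0.18 (SE) did not pass (edgeR adjusted p = 0.16). It passed without DMSO replicate 3, at 0.78 (edgeR adjusted p = 0.0058), and with no filter on low counts (edgeR adjusted p = 0.0050). The change at 24 h was larger than that at 2 h by 1.35 ± 0.26 and than that at 6 h by 1.13 ± 0.26 (SE; edgeR adjusted p = 0.00021 and 0.0016).

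T>C reads of the EP300 3' UTR were called higher as well, at 24 h and with a smaller estimate. They stood at 75.8, 73.7 and 103 RPM with dCBP-30 at 24 h and at 54.2, 35.4 and 42 RPM with DMSO. The groups did not overlap, and the log2 fold change was 0.94 ± 0.20 (SE; edgeR adjusted p = 0.00011), a 1.92-fold rise while the median gene had fallen by 0.69. At 2 and 6 h the estimates were 0.13 ± 0.20 and 0.12 ± 0.20 (SE; edgeR adjusted p = 0.80 and 0.73), with overlapping libraries. The change at 24 h exceeded those at 2 and 6 h by 0.81 and 0.82 (edgeR adjusted p = 0.027 and 0.044), but both calls were lost with DESeq2 (adjusted p = 0.13 and 0.19), with reads summed over transcripts (0.63 and 0.67, edgeR adjusted p = 0.25 and 0.30) and with background subtracted (edgeR adjusted p = 0.069 and 0.11). They were also lost in 6 and in 10 of the 18 fits leaving out a library, the first being 0.43 without DMSO replicate 3 at 2 h (edgeR adjusted p = 0.26).

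A second listed region of EP300, from 41146766 to 41177057 and made of 21 exon blocks that share no base with the 3' UTR above, was counted after the values of the first were seen. It held 2936, 3234 and 2632 reads with dCBP-30 at 24 h and 1182, 836 and 875 reads with DMSO, again without overlap, and its total reads were higher by a log2 fold change of 1.34 ± 0.24 (SE; edgeR adjusted p = 6.3e-05). In T>C reads this region gave 214, 239 and 204 reads against 257, 213 and 144, a log2 fold change of -0.15 ± 0.29 (SE; edgeR adjusted p = 0.72). The differences of the T>C change between 24 h and 2 or 6 h were -0.35 and 0.19 in this region (edgeR adjusted p = 0.60 and 0.85). The call in total reads at 24 h was thus made in both regions and the call in T>C reads in the 3' UTR only.

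CREBBP, on chromosome 16 with its 3' UTR at 3725054 to 3727717 on the minus strand, had the lowest median of the 10 in total reads under DMSO, at 20.4 RPM. With dCBP-30 at 24 h it stood at 54.6, 54.4 and 46.9 RPM against 24.9, 17.1 and 24.7 RPM under DMSO. The lowest dCBP-30 library was well above the highest DMSO library. CREBBP rose by a log2 fold change of 1.23 ± 0.21 (SE; edgeR adjusted p = 1.65e-05), a 2.34-fold difference with a 95% interval from 1.77 to 3.10.

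At 6 h the CREBBP values were 32.8, 33.2 and 50.6 RPM against 18.8, 21.9 and 20.4 RPM, a rise of 0.93 ± 0.21 (SE; edgeR adjusted p = 0.00089) with no overlap. At 2 h, 2 of the 3 dCBP-30 libraries (20.3 and 19.3 RPM) lay within the range of the DMSO libraries (18 to 20.6 RPM) and the other stood at 35.5 RPM, and the difference of 0.37 ± 0.21 did not pass (edgeR adjusted p = 0.40). The change at 24 h was larger than at 2 h by 0.85 ± 0.29 (edgeR adjusted p = 0.022), a call lost without dCBP-30 replicate 1 or 3 at 2 h or DMSO replicate 2 at 24 h (0.73, 0.67 and 0.69). Between 24 and 6 h the changes of CREBBP were not told apart (0.30 ± 0.29, edgeR adjusted p = 0.48).

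New CREBBP RNA gave no call. T>C reads at 24 h were 7.44, 6.65 and 7.56 RPM with dCBP-30 and 8.68, 7.51 and 7.47 RPM with DMSO, overlapping groups whose log2 fold change was -0.13 ± 0.30 (SE; edgeR adjusted p = 0.78). The 95% interval of that change, under this scaling only, was 0.61-fold to 1.38-fold. At 2 and 6 h the estimates were 0.50 ± 0.31 and 0.52 ± 0.31 (edgeR adjusted p = 0.38 and 0.25), although at 2 h each dCBP-30 library (5.78, 6.21 and 7.51 RPM) lay above each DMSO library (2.92, 5.43 and 5.45 RPM). Scaling by T>C reads in place of total reads moved the value at 6 h to 0.83 (edgeR adjusted p = 0.041) and that at 24 h to 0.52 (edgeR adjusted p = 0.19).

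**Figure D2:**
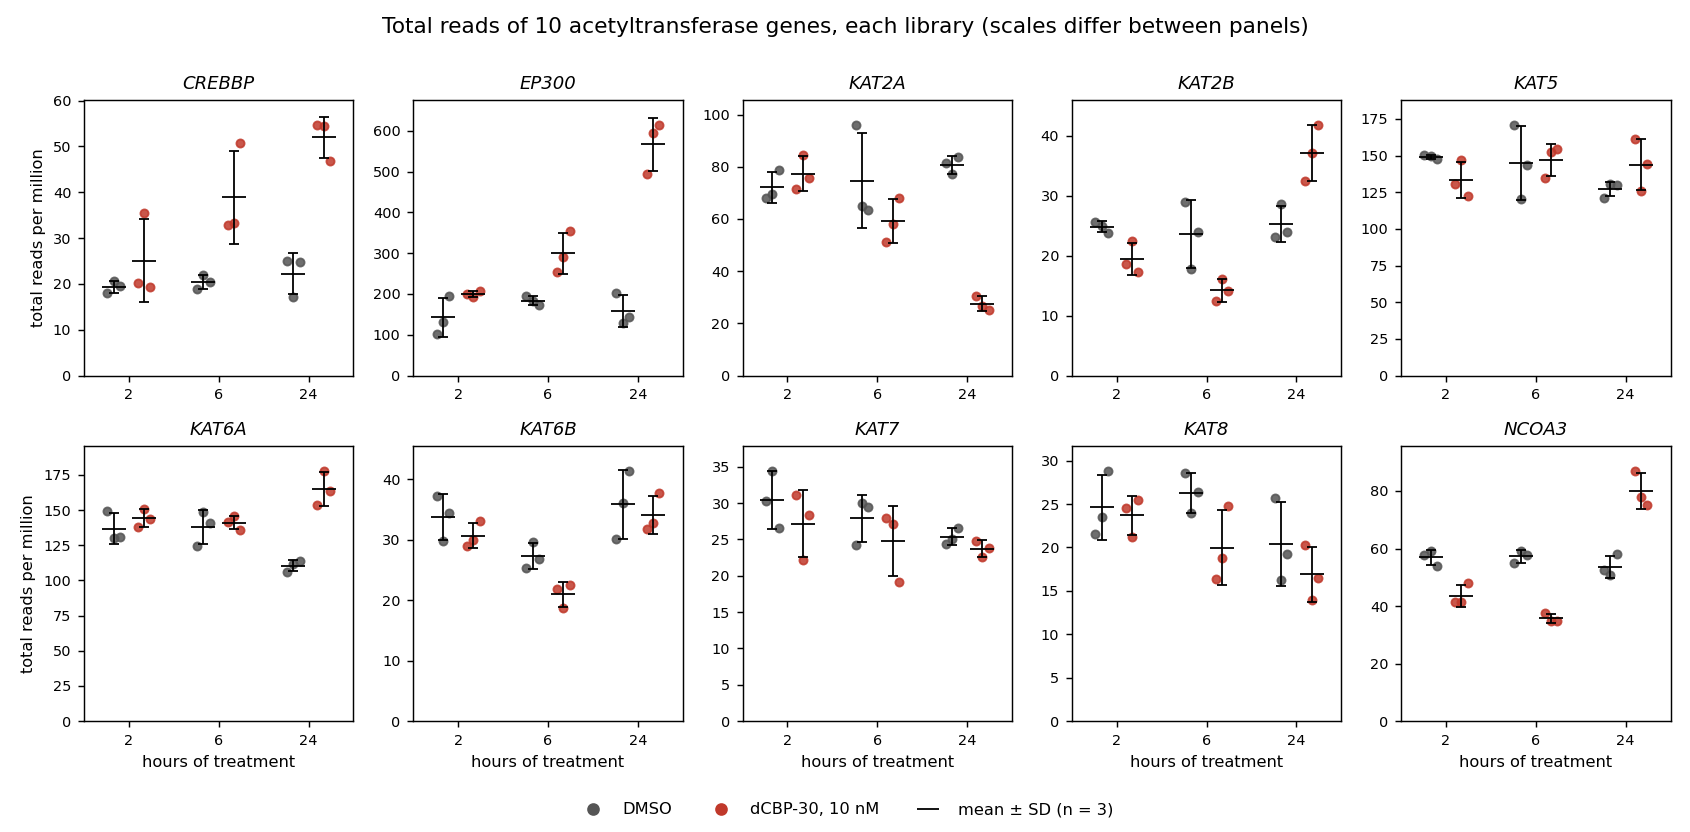
Total reads (RPM) of the 10 genes in each of the 18 labelled libraries at 2, 6 and 24 h of treatment; grey points are DMSO, red points are 10 nM dCBP-30, and bars are the mean ± SD (n = 3), with a separate axis from 0 for each gene. EP300 with dCBP-30 goes from 194 to 207 RPM at 2 h to 493.5 to 614 RPM at 24 h, while KAT2A ends at 25 to 30.6 RPM.

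KAT2A and KAT2B, the paralogous catalytic subunits of SAGA and ATAC, moved in opposite directions in total reads at 24 h. KAT2A lies on chromosome 17 (42113118 to 42119240, minus strand), where its listed region is made of 13 exon blocks. At 24 h it was read at 30.6, 26.8 and 25 RPM with dCBP-30 and at 81.6, 77.1 and 83.7 RPM with DMSO. These groups were far apart, and KAT2A fell by 1.56 ± 0.15 (SE; edgeR adjusted p = 2.26e-09) on the log2 scale, to 0.34 of the DMSO level. At 6 h the groups overlapped, at 51.3, 58.1 and 68 RPM against 95.9, 65 and 63.3 RPM, and the difference of -0.34 ± 0.14 did not pass (edgeR adjusted p = 0.064). Leaving out dCBP-30 replicate 3, DMSO replicate 2 or DMSO replicate 3 at 6 h made it pass. The change at 24 h was more negative than at 2 and 6 h by -1.66 ± 0.21 and -1.22 ± 0.21 (edgeR adjusted p = 4.65e-07 and 4.73e-05).

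T>C reads of KAT2A were few. At 24 h they numbered 12, 6 and 24 reads with dCBP-30 and 36, 78 and 12 reads with DMSO, and the 2 groups overlapped. The fit gave -1.78 ± 0.63 (SE; edgeR adjusted p = 0.020). The call was lost without DMSO replicate 2 (-1.08, edgeR adjusted p = 0.26) and without dCBP-30 replicate 1 or 2 (-1.69 and -1.43). It was also lost with the T>C background subtracted, with the T>C scaling, without TMM factors and with a replicate block (-1.66, edgeR adjusted p = 0.067). The median gene fell by 0.69 in the same comparison. At 6 h the estimate for KAT2A was -1.57 ± 0.66 (SE) and did not pass (edgeR adjusted p = 0.077). It passed with background subtracted (-3.05, edgeR adjusted p = 0.031) and without DMSO replicate 2 at 6 h (-1.98, edgeR adjusted p = 0.030).

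KAT2B is read on chromosome 3 (20152526 to 20154404, plus strand). At 6 h it stood at 12.4, 16.2 and 14.2 RPM with dCBP-30 and at 29, 17.8 and 23.9 RPM with DMSO, without overlap, and was lower by -0.73 ± 0.18 (SE; edgeR adjusted p = 0.0022). By 24 h the order had turned, with 32.4, 37.1 and 41.7 RPM against 23.1, 28.6 and 24 RPM, again without overlap, and KAT2B was higher by 0.56 ± 0.17 (SE; edgeR adjusted p = 0.0083). The difference between these 2 changes was 1.28 ± 0.25 (edgeR adjusted p = 0.00025), and that between 24 and 2 h was 0.90 ± 0.25 (edgeR adjusted p = 0.0049). Without TMM factors the decrease at 6 h was -0.41 and did not pass (edgeR adjusted p = 0.060). With 3 to 79 T>C reads per library, KAT2B passed at no time point in T>C reads.

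The ratio of KAT2B to KAT2A reads within a library needs no scaling between libraries. It was chosen after the values were seen and is given without a test. With dCBP-30 at 24 h it was 1.06, 1.38 and 1.67, against 0.28, 0.37 and 0.29 under DMSO, so that KAT2B had more reads than KAT2A in these 3 libraries and fewer in every other library. At 2 and 6 h the ratio with dCBP-30 averaged 0.25 ± 0.02 and 0.24 ± 0.03 (SD, n = 3), against 0.35 ± 0.04 and 0.32 ± 0.05 under DMSO.

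NCOA3 is read on chromosome 20 (47653418 to 47656872, plus strand), where its 3' UTR overlaps that of SULF2 on the other strand. It too turned with time in total reads. At 6 h it was read at 37.6, 34.7 and 34.8 RPM with dCBP-30 and at 54.9, 59.1 and 57.7 RPM with DMSO, and was lower by -0.68 ± 0.12 (SE; edgeR adjusted p = 3.88e-05). At 24 h it was read at 87, 78.1 and 75 RPM against 52.5, 50.7 and 58 RPM, and was higher by 0.58 ± 0.11 (SE; edgeR adjusted p = 0.00012). Neither pair of groups overlapped, and the 2 changes differed by 1.26 ± 0.16 (edgeR adjusted p = 1.03e-06). At 2 h every dCBP-30 library (41.4, 41.5 and 48.1 RPM) lay below every DMSO library (57.9, 59 and 54.1 RPM), a difference of -0.38 ± 0.12 that did not pass (edgeR adjusted p = 0.059), although it did with DESeq2 (adjusted p = 0.016), with reads summed over transcripts (edgeR adjusted p = 0.041) and without dCBP-30 replicate 3 (-0.46, edgeR adjusted p = 0.046). The change at 24 h differed from that at 2 h by 0.96 ± 0.16 (edgeR adjusted p = 3.43e-05).

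NCOA3 was the 1 member called in T>C reads at 2 h, with 4.23, 3.96 and 3.19 RPM against 6.31, 6.35 and 10.2 RPM. The libraries did not overlap, and T>C reads were lower by -1.01 ± 0.29 (SE; edgeR adjusted p = 0.011). The call was lost without DMSO replicate 3 (-0.74, edgeR adjusted p = 0.15) or dCBP-30 replicate 3 (-0.90, edgeR adjusted p = 0.076). At 6 and 24 h the estimates were -0.55 ± 0.28 and -0.26 ± 0.27 and did not pass (edgeR adjusted p = 0.15 and 0.48). At 24 h, total reads of NCOA3 were thus higher while its T>C reads, at 10.2, 9.23 and 11 RPM against 11, 13.4 and 12 RPM, gave no call.

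Among the MYST family, KAT6A, which acetylates histone H3 with BRPF scaffolds, is on chromosome 8 and was the third most abundant member under DMSO (median of 130 RPM). At 24 h it stood at 153.8, 178 and 163.8 RPM with dCBP-30 and at 106, 112 and 114 RPM with DMSO. The groups did not overlap, and KAT6A was higher by 0.58 ± 0.10 (SE; edgeR adjusted p = 2.88e-05). The change at 24 h was larger than at 2 and 6 h by 0.50 ± 0.14 and 0.55 ± 0.14 (edgeR adjusted p = 0.0068 and 0.0045), the estimates at those times being 0.08 ± 0.10 and 0.03 ± 0.10. A second listed region of KAT6A with no base in common gave 0.19 ± 0.20 at 24 h (edgeR adjusted p = 0.40), so the call was made in the first region only. In T>C reads of that second region the change at 24 h was below that at 2 h by -1.89 ± 0.68 (edgeR adjusted p = 0.032), against -0.24 ± 0.24 in the first (edgeR adjusted p = 0.51). In T>C reads at 24 h the dCBP-30 libraries (32.99, 26.8 and 31.5 RPM) all lay below the DMSO libraries (41.1, 33.3 and 39.1 RPM), but the highest of the first came close to the lowest of the second and the difference of -0.31 ± 0.17 did not pass (edgeR adjusted p = 0.14).

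KAT6B, the paralogue of KAT6A, is read on chromosome 10 (75031047 to 75032624, plus strand). Its total reads at 6 h were 21.8, 18.6 and 22.5 RPM with dCBP-30 and 25.4, 29.6 and 26.8 RPM with DMSO, without overlap, and the decrease of -0.38 ± 0.15 only just passed (edgeR adjusted p = 0.047). It no longer passed in 11 of the 18 fits that left out a library, with edgeR adjusted p-values up to 0.18 without dCBP-30 replicate 2 at 6 h. The call was also lost with each time point fitted alone, with no filter and with a replicate block (edgeR adjusted p = 0.092, 0.093 and 0.080). Without TMM factors the change was -0.06. At 24 h total reads overlapped, at 31.8, 32.7 and 37.7 RPM against 30.1, 36.1 and 41.4 RPM. Mean T>C reads at 2, 6 and 24 h were 5.47, 4.56 and 5.95 RPM with dCBP-30 and 7.66, 7.81 and 11.7 RPM with DMSO. At 24 h the groups did not overlap, at 4.05, 7.03 and 6.76 RPM against 10.9, 9.12 and 15 RPM. T>C reads at 24 h were lower by -0.97 ± 0.30 (SE; edgeR adjusted p = 0.0070). Without dCBP-30 replicate 1 or DMSO replicate 3 this was -0.76 or -0.75 and no longer passed (edgeR adjusted p = 0.067 and 0.078). A second listed region of KAT6B with no base in common (75020795 to 75022125, 3 blocks) held 1 to 46 T>C reads in a labelled library. At 6 h these were 6, 1 and 11 reads with dCBP-30 and 8, 46 and 28 reads with DMSO, overlapping in 1 pair of libraries. Its T>C reads were lower at 6 h (-2.34 ± 0.78, edgeR adjusted p = 0.020), where the first region gave -0.78 ± 0.31 (edgeR adjusted p = 0.056), and did not pass at 24 h (-1.22 ± 0.72, edgeR adjusted p = 0.18). Total reads of this region at 6 h were lower by -0.95 ± 0.30 (edgeR adjusted p = 0.013).

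KAT7 (HBO1), the MYST enzyme of the BRPF and JADE complexes, is read on chromosome 17 (49827503 to 49835026, plus strand). Its T>C reads at 24 h were 3.78, 2.91 and 4.24 RPM with dCBP-30 and 6.74, 9.84 and 9.93 RPM with DMSO. All 3 treated libraries were lower than all 3 controls, and the log2 fold change was -1.28 ± 0.33 (SE; edgeR adjusted p = 0.0012). Total reads at 24 h did not follow, at 24.8, 22.5 and 23.8 RPM against 24.3, 25.1 and 26.6 RPM, a difference of -0.10 ± 0.17 (edgeR adjusted p = 0.64). The decreases of KAT7 and KAT6B in T>C reads were 0.59 and 0.28 beyond that of the median gene, and neither passed when T>C reads were scaled by themselves (-0.64 and -0.32, edgeR adjusted p = 0.14 and 0.46).

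KAT5 and KAT8 showed no called change. KAT5, the catalytic subunit of the TIP60 complex on chromosome 11 (65719182 to 65719604, plus strand, overlapping RNASEH2C on the other strand), was read at 161, 126 and 144 RPM with dCBP-30 at 24 h and at 121, 130.4 and 129.8 RPM with DMSO, overlapping groups. Its log2 fold change was 0.18 ± 0.12 with a 95% interval from 0.96-fold to 1.33-fold. KAT8 (MOF), the enzyme of the MSL and NSL complexes on chromosome 16 (31130611 to 31131393, plus strand), was read at 20.3, 14 and 16.5 RPM against 25.7, 16.2 and 19.3 RPM. The change of KAT8 was -0.27 ± 0.19 with an interval from 0.64-fold to 1.08-fold, so a change as large as that of KAT2A lay outside both intervals. T>C reads of KAT8 were too few for a firm statement, with 0 to 28 in a library. In the 1 library with 0, dCBP-30 replicate 2 at 6 h, 0 of 338 reads allow a share of up to 0.888%, for counting error only. Without TMM factors KAT5 was higher at 24 h, by 0.70 (edgeR adjusted p = 2.13e-05), as were KAT6B (0.45, edgeR adjusted p = 0.0093) and KAT7 (0.43, edgeR adjusted p = 0.024), against a median gene of 0.58.

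The assay primes at the 3' end of transcripts, and RPM are not divided by length. EP300, KAT6A and KAT6B also had reads on regions upstream of the 3' UTR counted here, so the order of genes is one of reads on the counted regions. Under DMSO the median total level was 174 RPM for EP300, 144 RPM for KAT5 and 130 RPM for KAT6A, followed by KAT2A (77.1 RPM), NCOA3 (57.7 RPM), KAT6B (30.1 RPM), KAT7 (26.6 RPM), KAT2B (24 RPM), KAT8 (23.9 RPM) and CREBBP (20.4 RPM). Of neighbours in this order, only KAT6A and KAT2A, KAT2A and NCOA3, and NCOA3 and KAT6B had ranges over the 9 DMSO libraries that did not overlap.

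The share of T>C reads in all reads of a gene needs no scaling between libraries either. Under DMSO its median was highest for KAT6A (28.9%), KAT6B (28.5%), CREBBP (28%) and KAT7 (27.5%), followed by EP300 (21.9%) and NCOA3 (16.2%), and lowest for KAT5 (9.93%), KAT2B (7.84%), KAT8 (6.68%) and KAT2A (2.86%). The ranges over the 9 DMSO libraries overlapped between each of these genes and the next in order. In the libraries without 4sU the share was 0% to 1.97% for the 10 genes, and that of KAT2A with dCBP-30 at 6 h (0.93%, 0.76% and 0.99%) was hardly above its own 0.89% and 0.44% without 4sU.

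**Figure D3:**
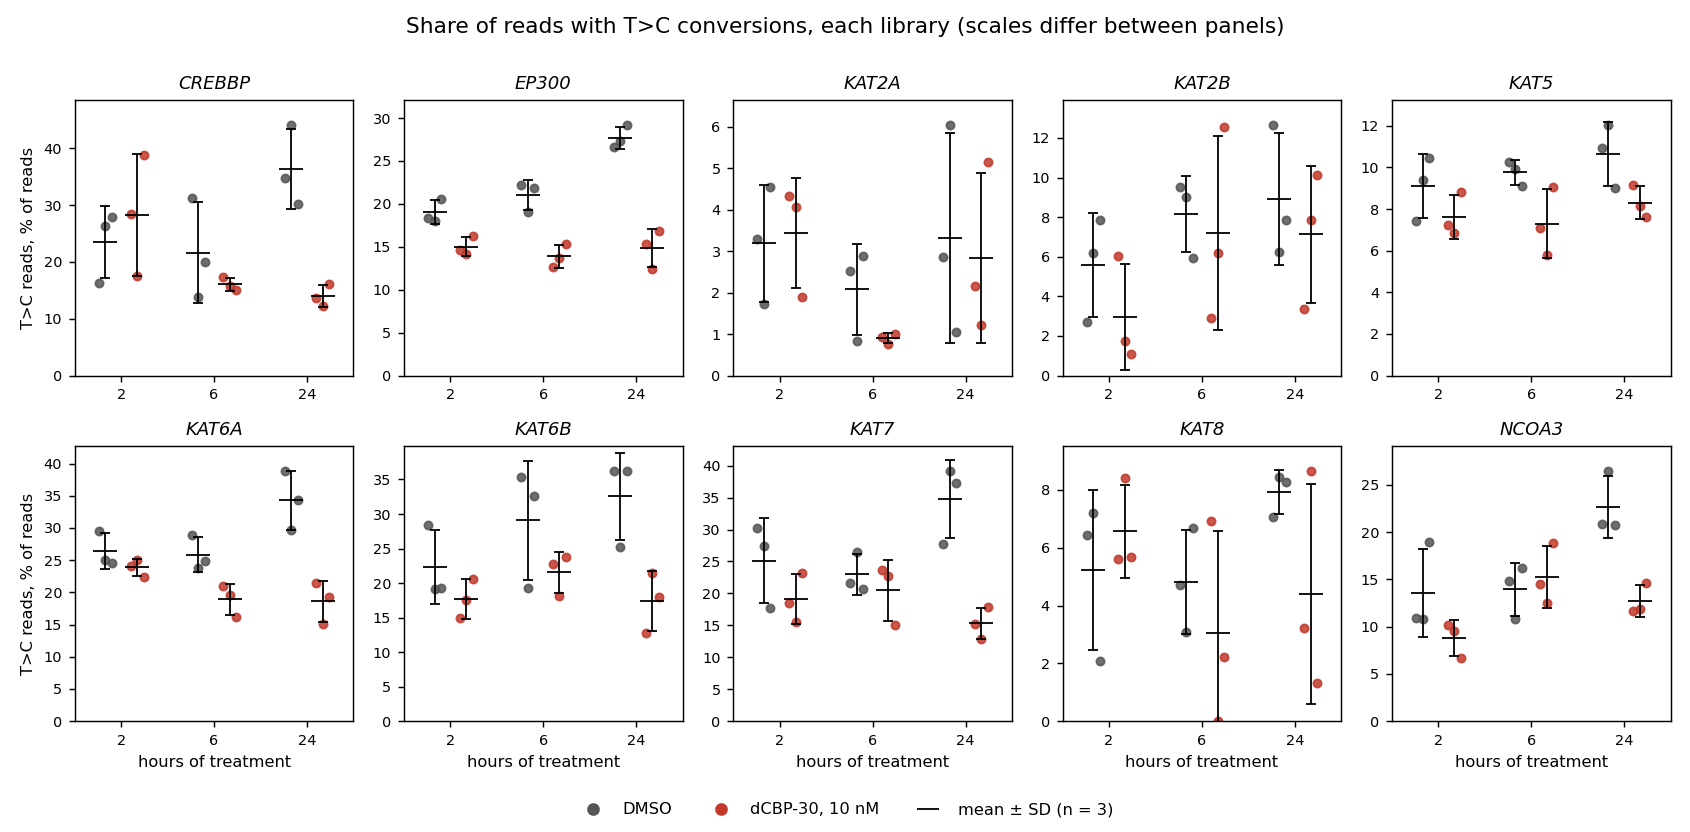
Percent of the reads of each gene that carry T>C conversions, in each labelled library at 2, 6 and 24 h; grey points are DMSO, red points are 10 nM dCBP-30, and bars are the mean ± SD (n = 3), with a separate axis from 0 for each gene. EP300 is lower with dCBP-30 at every time point, at 12.4% to 16.8% against 26.7% to 29.2% at 24 h.

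The share over all genes in a library was lower with dCBP-30, at 0.91, 0.78 and 0.77 of the DMSO value at 2, 6 and 24 h. It averaged 6.08%, 6.38% and 8.31% under DMSO and 5.54%, 4.98% and 6.38% with dCBP-30 at these times. The mean share was lower in all 10 members at 24 h, in 9 at 6 h and in 7 at 2 h, against 88.1%, 71.1% and 48.6% of 9941 genes with reads in every labelled library. Over the 3 times, 6 of the 10 had a lower share at an exact permutation p under 0.05 and none a higher one, against 30.1% and 0.805% of those genes. For EP300 the share went from 19.01% ± 1.4 to 15.02% ± 1.06 at 2 h, from 21.1% ± 1.74 to 13.9% ± 1.36 at 6 h and from 27.7% ± 1.3 to 14.9% ± 2.24 at 24 h (SD, n = 3). The groups did not overlap at any of the 3 times, and the mean difference of -8.00 percentage points had the smallest p that the two-sided exact permutation test within time points can give (p = 0.00025, not adjusted for the 10 genes tested). The same exact permutation test gave p = 0.00075 for KAT6A (-8.39 points), 0.0035 for KAT5 (-2.09 points), 0.0068 for KAT6B (-9.12 points) and for KAT7 (-9.33 points), and 0.028 for NCOA3 (-4.45 points). The share of CREBBP at 24 h was 13.99% ± 1.99 with dCBP-30 against 36.4% ± 7.05 under DMSO, without overlap. Over the 3 times its difference of -7.73 points did not pass (exact permutation p = 0.088). Nor did those of KAT2A, KAT2B and KAT8 (exact permutation p = 0.52, 0.23 and 0.31).

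The same test on shares scaled by the T>C share of their own library, added after the values were seen, kept the decrease of EP300 (-4.05 points, exact permutation p = 0.00025, again the smallest it can give). It did not keep those of KAT6A (-3.06 points), KAT5 (-0.34 points), KAT6B (-3.89 points), KAT7 (-4.06 points) and NCOA3 (-1.06 points), whose exact permutation p-values were 0.058, 0.55, 0.12, 0.16 and 0.56.

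A measure of labelling moved with these results at 24 h. Over all genes, the ratio of counted T>C conversions to T>C reads was 1.43 to 1.51 with dCBP-30 at 24 h against 2.46 to 2.51 with DMSO. Over 2 and 6 h the ranges were 2.13 to 2.27 with dCBP-30 and 2.12 to 2.22 with DMSO. Without 4sU the ratio was 0.918 to 0.928, so it need not equal the conversions carried by a read. For EP300 the values at 24 h were 1.33 to 1.56 against 2.38 to 2.72, and for CREBBP 1.504 to 2.03 against 2.70 to 3.78. The part of this difference in the T>C reads and shares at 24 h was not tested.

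Within a library, EP300 made up 45.3%, 51.1% and 51.7% of the reads of the 10 genes with dCBP-30 at 24 h and 29.4%, 20.8% and 21.6% with DMSO. At 6 h its part was 34.9%, 36.5% and 40.3% against 25.5%, 26% and 24.6%. CREBBP went from 3.35% ± 0.54 to 4.55% ± 0.54 at 24 h (SD, n = 3). The ratio of KAT6A to KAT6B reads was 4.84, 5.43 and 4.35 against 3.52, 3.11 and 2.75 at 24 h, and 6.78 ± 0.91 against 5.06 ± 0.19 at 6 h. These shares and ratios were likewise chosen after the values were seen and carry no test.

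**Figure D4:**
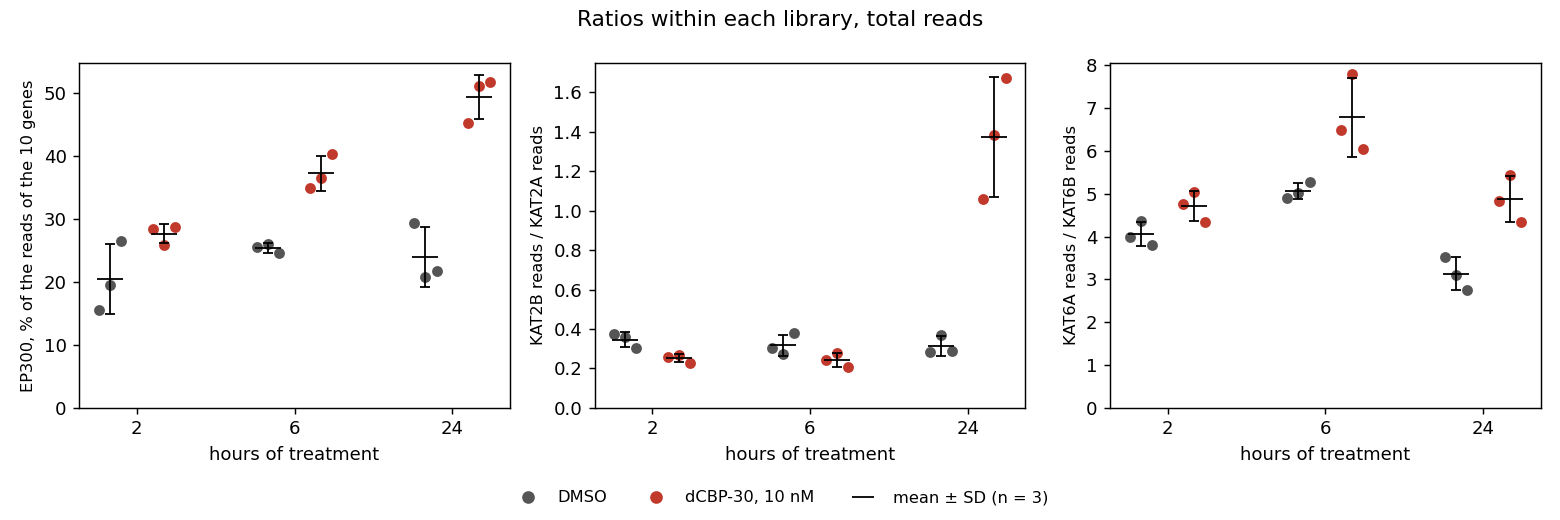
Ratios of total reads within each labelled library at 2, 6 and 24 h, for EP300 in percent of the reads of the 10 genes (left), KAT2B over KAT2A (middle) and KAT6A over KAT6B (right); grey points are DMSO, red points are 10 nM dCBP-30, and bars are the mean ± SD (n = 3). EP300 reaches 45.3% to 51.7% and KAT2B over KAT2A 1.06 to 1.67 with dCBP-30 at 24 h.

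Across the 18 labelled libraries, CREBBP and EP300 had a Pearson correlation of 0.88 in total reads and of 0.57 in T>C reads (log2 RPM), which is a description, since these libraries share the treatment and the time points. In T>C reads the genes most like CREBBP among 4782 compared were TEPSIN (0.87), RBM41 (0.86) and MKNK2 (0.85), and CCNI (0.88) and OPTN (0.86) were among those most like EP300.

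The complexes in which these enzymes work were followed through 6 lists of 75 genes in all, of which 69 were tested in T>C reads and 73 in total reads. Their counts stand against the same background shares as those of the members. At 24 h, 3 had more T>C reads (EPC1, TAF1 and VPS72) and 20 had fewer, with a median log2 fold change of -0.47 against -0.69 for all genes. In total reads 26 were higher and 17 lower at 24 h, against 28.7% and 29.9% of all genes, with a median of 0.12.

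Of 17 SAGA and ATAC subunits tested in T>C reads, 6 were lower at 6 h, against 21.3% of all genes. At 24 h, 1 was lower, against 37.1% of all genes. That gene was YEATS2, the histone reader of ATAC, at 3.27 ± 0.56 RPM with dCBP-30 against 9.84 ± 0.74 RPM with DMSO (SD, n = 3), a log2 fold change of -1.59 ± 0.33 (SE; edgeR adjusted p = 6.08e-05). Its total reads stood at 31.5 ± 1.80 and 32.7 ± 1.98 RPM and were not called. Of the 19 subunits tested in total reads, 6 were higher and 2 lower at 24 h, against 28.7% and 29.9% of all genes.

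The 17 subunits of the TIP60 (NuA4) complex had 2 members higher and 5 lower in T>C reads at 24 h. Among all genes these shares were 2.77% and 37.1%. EPC1, a scaffold of the complex, stood at 61.9 ± 6.46 RPM against 33.4 ± 2.34 RPM (SD) in T>C reads, higher by 0.89 ± 0.16 (SE; edgeR adjusted p = 5.4e-06), and its total reads by 1.58 ± 0.12 (edgeR adjusted p = 2.59e-11). VPS72, a histone variant chaperone subunit, was higher by 0.63 ± 0.23 (edgeR adjusted p = 0.024) in T>C reads. Without dCBP-30 replicate 1, dCBP-30 replicate 2 or DMSO replicate 1 at 24 h, 1 subunit in place of 2 was higher. YEATS4 and ACTL6A, a histone reader and an actin-related protein, were lower by -2.44 ± 0.41 and -1.75 ± 0.41 (edgeR adjusted p = 1.52e-06 and 0.00039), and both were lower in total reads as well (-1.48 and -1.24).

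Among 9 scaffolds and accessory subunits of the KAT6A, KAT6B and KAT7 complexes, 2 were lower and none higher in T>C reads at 24 h. Among all genes these shares were 37.1% and 2.77%. JADE1, a scaffold that pairs with KAT7, was lower at all 3 times, with log2 fold changes of -1.37, -1.91 and -2.11 at 2, 6 and 24 h (edgeR adjusted p = 4.88e-10, 6.52e-15 and 1.18e-16). At 24 h its T>C reads were 19 ± 0.73 RPM against 81.9 ± 6.62 RPM (SD, n = 3) and its total reads 58 ± 1.86 against 153.8 ± 11.6 RPM. BRPF1, the scaffold of KAT6A and KAT6B, was lower in T>C reads at 24 h by -1.29 ± 0.20 (edgeR adjusted p = 1.9e-07), while its total reads at 24 h differed by -0.22 ± 0.13 without a call. In total reads 4 of the 9 were higher and 1 lower at 24 h, against 28.7% and 29.9% of all genes.

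Of 10 MSL and NSL subunits tested, the partners of KAT8, 4 were lower and none higher in T>C reads at 24 h. These counts lie near the background of 37.1% and 2.77% of all genes. WDR5, a scaffold shared with other chromatin complexes, was lower by -1.25 ± 0.26 in T>C reads and by -1.33 ± 0.11 in total reads (edgeR adjusted p = 5.13e-05 and 1.46e-10). MSL1, the scaffold of MSL, was lower in T>C reads by -1.09 ± 0.37 (edgeR adjusted p = 0.014).

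Of 6 cofactors of CBP and p300 tested in T>C reads, CITED2, which binds both proteins, was the 1 called at 24 h. Among all genes, 37.1% were called lower and 2.77% higher there. CITED2 was lower at 2, 6 and 24 h (-1.42, -1.74 and -1.75, edgeR adjusted p = 7.28e-06, 2.56e-08 and 1.31e-08). Its T>C reads at 24 h were 6.93 ± 0.70 against 23.3 ± 3.30 RPM (SD, n = 3). In total reads 6 of the 8 cofactors were higher and 1 lower at 24 h, with a median log2 fold change of 1.16 against 0.05 for all genes. The 6 were NCOA1, NCOA2, CITED4, CRTC1, CRTC2 and CRTC3, coactivators of nuclear receptors, of CREB or of other factors that bind CBP and p300.

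Of 13 other acetyltransferases tested in T>C reads, 7 were lower and 1 higher at 24 h, against 37.1% and 2.77% of all genes. Without dCBP-30 replicate 2 at 24 h, 4 in place of 7 were lower. The median of the list was -1.33 against -0.69 for all genes. ESCO2, the cohesin acetyltransferase of S phase, was lower by -2.91 ± 0.37 and NAA50, a subunit of an N-terminal acetyltransferase, by -2.20 ± 0.25 (edgeR adjusted p = 1.57e-09 and 4.21e-11), and both were lower in total reads (-1.80 and -1.85). TAF1, the largest subunit of TFIID, was higher by 1.33 ± 0.30 in T>C reads and by 1.34 ± 0.15 in total reads at 24 h (edgeR adjusted p = 0.00020 and 3.41e-08), having been lower in T>C reads at 6 h (-0.85, edgeR adjusted p = 0.035).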

How the data were processed

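MM1.S cells were measured by SLAM-seq with 3'-end libraries. The deposited values are counts, whole numbers of reads and of T>C reads per transcript. The authors trimmed reads, mapped them to hg38, counted them on annotated 3' UTRs with Slamdunk and collapsed regions of a transcript. The paper states that multimapping and low-quality reads were removed. A count of multimapping reads is still given, and it was 0.01% (KAT5 and KAT6B) to 3.88% (KAT7) of the reads of a member. Drosophila spike-in RNA was added before alkylation and is not analysed here. Of 97466 transcript rows, 89088 (91.4%) matched GENCODE 44, and unmatched rows held 0.0789% to 0.199% of the reads. The members and lists were chosen with earlier results of these data known.

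A gene was taken as its transcript with the most reads. Counts were tested with edgeR 4.0.16 in R 4.3.3 (filterByExpr, robust quasi-likelihood fit of 6 groups over 18 libraries, TMM factors from total reads). DESeq2 1.42.0 was an alternative, as were other scalings, no filter, summed transcripts, background subtraction, each time point alone, a replicate block, the 2-fold cutoff of the methods, leaving out each library and, added after seeing the data, a second region of a member with at least 2000 reads (found for EP300, KAT6A and KAT6B) and T>C shares scaled by that of the library. T>C shares were compared by a two-sided exact permutation test within time points (8000 permutations), with no adjustment over the 10 genes. The edgeR fit was also run on simulated T>C counts, scaled by total reads without the TMM factors of the main fit. Depth was 12440700 to 18729086 reads on genes. Reads carry no molecular identifiers, so limits set by a count of 0 cover counting error only.

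All 10 members are named. From each list the 2 called genes with the largest decrease and the 2 with the largest increase of T>C reads at 24 h were named, where the group with more T>C reads had a mean of at least 20. Likeness is Pearson's r of log2(T>C RPM + 0.5) among genes with a mean of 50 T>C reads, and 1 gene that this rule names is not reported here. No 2 libraries were copies (chi-square per degree of freedom from 8.36 to 47.5). Whether replicate numbers pair the libraries is not stated. Deviations of libraries with the same number correlated between -0.43 and 0.13, above 0.1 in 1 of 9 pairs. With so few libraries in a group, these correlations cannot decide it.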

Additional observations from a re-analysis of the deposited data

Results flagged for a closer look

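The change with dCBP-30 differed between time points in 13 of 60 tests of that difference, by edgeR's adjusted p. In T>C reads this was EP300, whose log2 fold change at 24 h exceeded that at 2 h by 0.81 and that at 6 h by 0.82, differences that were not called with DESeq2, summed transcripts, background subtraction or the second region, nor in 6 and 10 of the 18 fits leaving out a library. In total reads at 24 h against 2 h, the change was larger by 0.85 for CREBBP, 1.35 for EP300, 0.90 for KAT2B, 0.50 for KAT6A and 0.96 for NCOA3, and differed by -1.66 for KAT2A. In total reads at 24 h against 6 h, it was larger by 1.13 for EP300, 1.28 for KAT2B, 0.55 for KAT6A and 1.26 for NCOA3, and differed by -1.22 for KAT2A. None of the differences between 6 and 2 h was called.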

How the results depend on the processing

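Total reads of EP300, CREBBP and NCOA3 at 6 and 24 h and of KAT2A, KAT2B and KAT6A at 24 h were called in the same direction under every scaling, tool, filter, replicate block and left-out library tried, the exceptions being the 2-fold cutoff and the second regions. With no TMM factors the counts in total reads were 4 higher and 1 lower at 6 h and 8 higher at 24 h. The median gene then stood at 0.35 and 0.58 at these times. Shares of all genes called were counted for the main fit only, so no background stands beside the counts in this section. Without TMM factors, values also turned to 0.049 for KAT8 at 2 h, 0.14 for KAT7 at 6 h and 0.45, 0.43 and 0.25 for KAT6B, KAT7 and KAT8 at 24 h. In T>C reads, scaling by T>C reads and no TMM factors each gave 1 higher member at 6 h and 0 lower members at 24 h. They turned KAT7 at 6 h to 0.0115 and 0.0081 and, at 24 h, CREBBP to 0.52 and 0.39, KAT5 to 0.47 and 0.35, KAT6A to 0.33 and 0.21 and NCOA3 to 0.39 and 0.26. No TMM factors also turned KAT6A at 2 h to 0.033. Background subtraction gave 1 lower in T>C reads at 6 h, KAT2A (-3.05). The 2-fold cutoff left 0 higher in T>C reads at 24 h, 0 higher and 0 lower in total reads at 6 h and 2 higher at 24 h. In total reads at 2 h, 1 member was higher with no filter, and 1 was lower with DESeq2 and with summed transcripts.

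The second regions turned T>C reads of KAT6A at 2 h to 1.08, of EP300 to -0.34 at 6 h, -0.15 at 24 h and -0.35 for 24 against 2 h, and total reads of KAT6A to -0.20 at 6 h and -0.22 for 24 against 2 h. They also made T>C reads of KAT6B at 6 h a call (-2.34) and ended its call at 24 h (-1.22), moved total reads of KAT6B at 6 h to -0.95 and made the difference of KAT6A in T>C reads for 24 against 2 h a call (-1.89). The replicate block changed 2 calls, KAT2A in T>C reads at 24 h (-1.66, edgeR adjusted p = 0.067) and KAT6B in total reads at 6 h (-0.38, edgeR adjusted p = 0.080).

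Leaving out each library moved T>C reads at 2 h between -0.083 and 0.51 for EP300, -0.13 and 0.63 for KAT2A, -0.15 and 0.093 for KAT6A and -0.0038 and 0.63 for KAT8, at 6 h between -0.11 and 0.28 for EP300 and at 24 h between -0.13 and 0.70 for KAT2B. Total reads moved between -0.14 and 0.075 for KAT8 at 2 h, -0.095 and 0.16 for KAT5 and -0.038 and 0.087 for KAT6A at 6 h, and -0.18 and 0.042 for KAT6B at 24 h. Members lower in T>C reads numbered 0 to 1, 0 to 2 and 1 to 3 at 2, 6 and 24 h. In total reads 0 to 1 were higher and 0 to 1 lower at 2 h, and 2 to 5 lower at 6 h. The counts of the lists moved in 66 cases on leaving out a library and stayed the same in 1230. Under the other choices of processing they moved in 104 cases and stayed the same in 472. The cause of these shifts was not tested. Scaling shares by that of the library ended 5 of the 6 share calls, all but that of EP300. T>C reads were few for KAT2A, KAT2B and KAT8, which limits what can be seen there.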
